A study of Mus musculus with 12 samples.

Results

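Choroid plexus genes were followed in neocortical RNA of wildtype and Chd8 heterozygous mice. They are Ttr, Enpp2, Sostdc1, F5, Clic6, Kcne2, Aqp1, Folr1, Kl and Otx2, that is 10 of the 46603 genes counted, and each was found by its symbol. The list was chosen by measured values, in that the genotype differences at P5 were already known and Clic6 and Folr1 had appeared among the larger ones. The genotype values of these genes at P5 are therefore a description and carry no test. The choice did not use the E12.5 genotype comparison, whereas the change between the stages in each genotype rests in part on the same P5 libraries.

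The study asked how loss of one copy of Chd8, a gene encoding a chromatin remodelling factor, alters gene expression in the developing neocortex. There were 4 groups of 3 libraries each, namely Chd8+/+ and Chd8+/- neocortex at embryonic day 12.5 (E12.5), taken from both hemispheres, and at postnatal day 5 (P5), taken from a single hemisphere. The Chd8 allele was targeted in C57BL/6 embryonic stem cells. The Chd8+/- mice carried a null allele in every tissue, because the floxed allele had been deleted with a ubiquitous β-actin Cre, later bred out. Experimental litters came from Chd8+/- mice crossed with C57BL/6J. The sources used here do not say whether the 3 libraries of a group came from separate animals, so that p-values measure the spread between these libraries.

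The choroid plexus is the secretory epithelium that hangs in the ventricles of the brain and makes cerebrospinal fluid. Its epithelial cells arise from the dorsal midline next to the cortical hem, under the transcription factor Otx2, and they sit on a stroma of fibroblasts and blood vessels. They secrete carriers such as transthyretin and move water, ions and vitamins between blood and fluid. In the hemisphere the plexus lies against the medial wall. In bulk RNA such as this, fewer cells of a type and less RNA per cell cannot be told apart.

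Library depth ranged from 38774591 to 54695236 counted reads over the 12 libraries. Chd8 itself gave normalised counts of 228.6 to 235.5 in Chd8+/+ and 161.1 to 167.3 in Chd8+/- at E12.5, and of 145.4 to 151.0 in Chd8+/+ and 95 to 98.6 in Chd8+/- at P5, and the genotypes did not overlap. Normalised counts here are CPM, counts divided by the TMM-adjusted library size and scaled to a common total. Among the libraries of a group, P5 Chd8+/- replicate 3 stood apart from the other two, with a chi-squared per degree of freedom over genes of 39.98 and 45.383, beside 10.543 between those and 6.584 to 16.725 in the other groups. Cortical genes were abundant as the tissue label says. The 14 genes of the cortex list summed to between 1469.5 and 1817.2 CPM at E12.5 and between 1194.5 and 1297.6 CPM at P5.

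Promoter windows of RefSeq (build GRCm38.p6, 250 bases before to 50 bases after a transcription start) were found for 5 of the 10 genes, in 9 windows, and none were read for Ttr, Enpp2, Sostdc1, Clic6 and Folr1. Those of Kl and Aqp1 and the first of Kcne2 are shown because they set Kl and Aqp1, whose genotypes did not overlap at P5, beside Kcne2, whose genotypes did, and the third window of Otx2 is shown because it alone held a motif that was searched. Each is written 5′ to 3′ on the strand of the gene. In the first 3 sequences the capitals mark CpG dinucleotides, and in that of Otx2 they mark the motif.
Kl, chr5:150952357-150952656, plus strand: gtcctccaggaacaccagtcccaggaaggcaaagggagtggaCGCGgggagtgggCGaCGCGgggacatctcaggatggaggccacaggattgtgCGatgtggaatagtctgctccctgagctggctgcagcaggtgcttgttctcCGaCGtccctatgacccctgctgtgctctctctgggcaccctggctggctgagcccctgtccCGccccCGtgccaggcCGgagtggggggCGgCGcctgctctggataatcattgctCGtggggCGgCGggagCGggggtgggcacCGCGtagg
Aqp1, chr6:55336049-55336348, plus strand: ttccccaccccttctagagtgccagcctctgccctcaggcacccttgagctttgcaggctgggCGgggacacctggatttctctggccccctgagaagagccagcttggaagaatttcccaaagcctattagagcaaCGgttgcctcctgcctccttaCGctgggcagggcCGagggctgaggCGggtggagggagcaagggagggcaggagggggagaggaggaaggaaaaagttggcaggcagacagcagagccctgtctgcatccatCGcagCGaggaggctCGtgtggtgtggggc
Kcne2, chr16:92292139-92292438, plus strand: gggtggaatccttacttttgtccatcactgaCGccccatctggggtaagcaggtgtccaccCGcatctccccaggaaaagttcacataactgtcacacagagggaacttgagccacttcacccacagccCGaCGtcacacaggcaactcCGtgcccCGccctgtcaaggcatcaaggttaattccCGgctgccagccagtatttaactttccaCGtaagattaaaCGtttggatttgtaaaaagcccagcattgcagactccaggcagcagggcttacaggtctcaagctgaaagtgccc
Otx2, chr14:48665060-48665359, minus strand: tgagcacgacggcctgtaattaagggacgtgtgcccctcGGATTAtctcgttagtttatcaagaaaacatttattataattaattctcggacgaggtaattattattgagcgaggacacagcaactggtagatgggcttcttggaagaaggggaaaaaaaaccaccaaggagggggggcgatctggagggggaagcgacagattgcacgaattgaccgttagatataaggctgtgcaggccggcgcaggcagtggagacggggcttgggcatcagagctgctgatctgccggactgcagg

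The window of Kl held 19 CpG dinucleotides, that of Aqp1 held 8 and the first of the 2 windows of Kcne2 held 9, against a median of 7 over the 32851 windows of the same length. The GC content was 67.3% for Kl, 62.7% for Aqp1 and 53.0% for that window of Kcne2, against a median of 52.7%. The second window of Kcne2, at chr16:92295366-92295665 and not shown, held 1 CpG dinucleotide at a GC content of 48.7%. F5 and Otx2, whose genotypes were also apart at P5, had lower GC contents than Kl and Aqp1. The window of F5 held 4 CpG dinucleotides at 57.7%. The windows of Otx2 held 6, 8, 16 and 11, at 41.7%, 47.7%, 51.0% and 53.7%. A relation between these values and the genotype difference was not tested. The bicoid-type core bound by OTX proteins, TAATCC on either strand, was found in 1 of the 9 windows, that of Otx2, as GGATTA beginning 211 bases before the start. This core occurred in 7.06% of all windows. The core bound by TCF/LEF factors of the Wnt pathway, CTTTGAT on either strand, was in 0 of the 9 windows and in 3.73% of all windows. Kcne2 and Clic6 are neighbours on chromosome 16, with 187607 bases between them (Kcne2 at chr16:92292389-92298129, Clic6 at chr16:92485736-92541243). Otx2 (chr14:48657679-48667644) and Chd8 (chr14:52198151-52257723) lie on the same chromosome, 3530507 bases apart.

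The levels of the 10 genes spanned a wide range, which is compared between genes per length, as TPM, in which counts are divided by the exon length of the gene and scaled to a common total. At P5, Ttr was far above the others in Chd8+/+ neocortex, at 1258.4 ± 151.0 TPM (SD, n = 3). Ttr encodes transthyretin, the carrier of thyroid hormone and retinol-binding protein that the choroid plexus secretes. Enpp2 followed at 78.2 ± 3.65 TPM, and then Aqp1, Sostdc1, Clic6, Folr1 and Kcne2, all between 5.26 and 11.2 TPM. The libraries of Aqp1 and Sostdc1 overlapped in level, as did those of Clic6 and Folr1 and those of Folr1 and Kcne2. Otx2, at 2.34 ± 0.025 TPM, Kl, at 1.91 ± 0.0185 TPM, and F5, at 0.753 ± 0.146 TPM, were lowest and their libraries did not overlap. In Chd8+/- neocortex at P5 the order was Ttr, Enpp2, Sostdc1, Aqp1, Kcne2, Clic6, Folr1, Otx2, Kl and F5, in which the libraries of Kcne2 and Clic6 and those of Otx2 and Kl overlapped.

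At E12.5 the order was another one and was the same in both genotypes: Ttr, Otx2, Clic6, Enpp2, Kcne2, Sostdc1, Aqp1, Folr1, F5 and Kl. Otx2 held the second place, at 48.4 ± 4.21 TPM in Chd8+/+ and 55.2 ± 15.6 TPM in Chd8+/-. Kl was last, at 0.125 ± 0.0146 TPM in Chd8+/+, and rested on 13 to 18 reads in each of the 6 libraries. Clic6 and Enpp2 overlapped, and so did each neighbouring pair from Kcne2 down to Folr1.

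All 10 genes together summed to between 106.8 and 193.1 CPM at E12.5 and to between 401.9 and 672.7 CPM at P5. Ttr made up between 76.2% and 80.2% of that sum at P5 and between 26.6% and 44.4% at E12.5. Without Ttr, the sum was 78.5 to 128.7 CPM at E12.5, 112.5 to 133.3 CPM in Chd8+/+ at P5 and 93.1 to 95.6 CPM in Chd8+/- at P5.

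**Figure D1:**
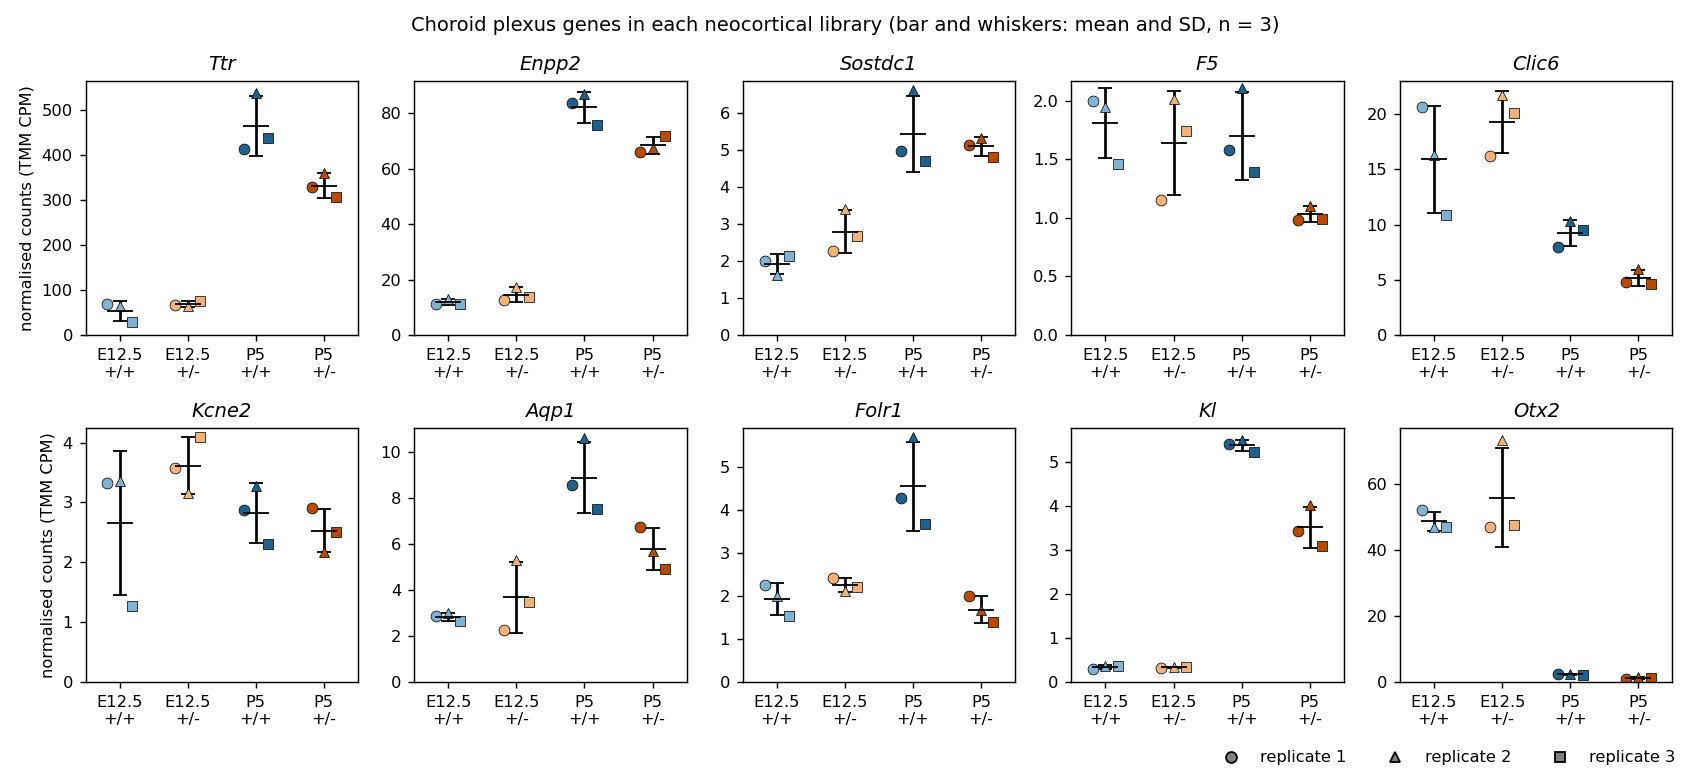
Normalised counts (TMM CPM, linear axis from 0) of each of the 10 choroid plexus genes in the 12 neocortical libraries, by stage and Chd8 genotype. Symbols are single libraries (replicates 1, 2 and 3), and the bar and whiskers are the mean and SD of 3 libraries. Ttr, Enpp2 and Kl stand higher at P5 than at E12.5, Otx2 stands lower, and in each panel the highest P5 library is Chd8+/+ replicate 2.

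The genotypes were first compared at E12.5. At this stage 8 of the 10 genes had a higher mean in Chd8+/- and 2 a lower one (49.8% of all genes were lower), and none passed the test. Log2 fold changes (Chd8+/- over Chd8+/+) lay between -0.14 for F5 and 0.53 for Sostdc1, with a median of 0.29 beside a median of 0.00058 over the 18081 genes tested. The median of the 10 was 0.095 without Chd8+/+ replicate 3 and 0.17 without Chd8+/- replicate 2. edgeR called 0 of the 10 genes, and over all genes it called 0.00553%, which is Chd8 alone. At an unadjusted p under 0.05, 2 of the 10 were higher in Chd8+/- (2.31% of all genes) and 0 lower (2.84% of all genes), and DESeq2 called 0 of the 8 it tested (0.0373% of all genes).

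Among the secreted factors, Ttr gave 69.1, 64.1 and 28.4 CPM in the Chd8+/+ libraries and 66.1, 64.4 and 76.3 CPM in the Chd8+/- libraries at E12.5. The genotypes overlapped, and Chd8+/+ replicate 3 was far below the other 5 libraries. The log2 fold change of Ttr was 0.36 ± 0.263 (SE, adjusted p = 0.962), and it was 0.05 without that library.

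Sostdc1, a secreted antagonist of BMP and Wnt signalling, gave 2.00, 1.63 and 2.15 CPM in Chd8+/+ and 2.28, 3.42 and 2.69 CPM in Chd8+/- at E12.5. It was the only one of the 10 whose genotypes did not overlap at this stage, with all 3 Chd8+/- libraries higher, beside 5.6% of all genes, and none of the 10 was lower throughout (5.76% of all genes). Its log2 fold change was 0.53 ± 0.185 (adjusted p = 0.942).

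Enpp2 encodes autotaxin, the secreted enzyme that makes lysophosphatidic acid. It gave 11.3, 13.1 and 11.3 CPM in Chd8+/+ and 12.6, 17.4 and 13.6 CPM in Chd8+/- at E12.5, with a log2 fold change of 0.29 ± 0.124 (adjusted p = 0.942). F5, which encodes coagulation factor V, gave 2.00, 1.95 and 1.46 CPM in Chd8+/+ and 1.15, 2.01 and 1.74 CPM in Chd8+/-, so that the lowest and the highest library were both Chd8+/-.

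Among the channels, transporters and receptors, Clic6, a member of the chloride intracellular channel family, gave 20.6, 16.3 and 10.9 CPM in Chd8+/+ and 16.2, 21.7 and 20.1 CPM in Chd8+/- at E12.5. Kcne2, an accessory subunit of potassium channels, gave 3.33, 3.36 and 1.28 CPM in Chd8+/+ and 3.58, 3.15 and 4.10 CPM in Chd8+/-. In both genes Chd8+/+ replicate 3 was the lowest of the 6 libraries, and the genotypes overlapped.

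The water channel gene Aqp1 gave 2.89, 2.99 and 2.65 CPM in Chd8+/+ and 2.28, 5.32 and 3.47 CPM in Chd8+/- at E12.5. The folate receptor gene Folr1 gave 2.26, 2.00 and 1.53 CPM in Chd8+/+ and 2.43, 2.12 and 2.22 CPM in Chd8+/-. Kl, which encodes Klotho, the co-receptor of the hormone FGF23, gave between 0.289 and 0.376 CPM in all 6 libraries. The genotypes overlapped in these 3 genes, whose log2 fold changes were 0.38 ± 0.258, 0.22 ± 0.173 and -0.016 ± 0.260. That of Aqp1 was 0.03 without Chd8+/- replicate 2, and that of Folr1 was 0.08 without Chd8+/+ replicate 3.

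The transcription factor Otx2 gave 52.0, 46.9 and 46.8 CPM in Chd8+/+ and 46.9, 73.2 and 47.5 CPM in Chd8+/- at E12.5. A single library, Chd8+/- replicate 2, was high and the other 5 lay within 46.8 to 52.0 CPM. The log2 fold change was 0.20 ± 0.152 (adjusted p = 0.962) with all libraries and -0.04 without that one.

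At P5 all 10 genes had a lower mean in Chd8+/- than in Chd8+/+ (49.6% of all genes did), by very unequal amounts. Folr1 stood at 37.5% of its wildtype level, Otx2 at 55.1% and Clic6 at 56.5%, whereas Kcne2 stood at 90.8% and Sostdc1 at 95.1%. With DESeq2's prior, which shrinks fold changes towards 0, the log2 fold changes of Folr1, Otx2 and Clic6 were -0.50, -0.27 and -0.46, beside -1.41, -0.86 and -0.82 in edgeR. The median log2 fold change was -0.60, beside 0.0017 over the 18666 genes tested. In 8 of the 10 genes all Chd8+/- libraries lay below all Chd8+/+ libraries, a pattern that 14.8% of all genes showed. edgeR called 0 of the 10 (0.00536% of all genes, again Chd8 alone), 8 were lower at an unadjusted p under 0.05 (9.77% of all genes), and DESeq2 called 5 of the 6 it tested (3.55% of all genes called lower). Because the list was chosen with this contrast in view, nothing is read from these counts.

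Folr1 gave 4.30, 5.70 and 3.69 CPM in the Chd8+/+ libraries and 2.01, 1.67 and 1.4 CPM in the Chd8+/- libraries at P5, with a log2 fold change of -1.41 ± 0.186. The genotypes were well apart.

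Clic6 gave 7.93, 10.3 and 9.53 CPM in Chd8+/+ and 4.84, 5.96 and 4.67 CPM in Chd8+/- at P5, a log2 fold change of -0.82 ± 0.123. Aqp1 gave 8.57, 10.6 and 7.5 CPM in Chd8+/+ and 6.73, 5.70 and 4.93 CPM in Chd8+/-, a log2 fold change of -0.60 ± 0.142. Kl gave 5.40, 5.49 and 5.23 CPM in Chd8+/+ and 3.43, 4.01 and 3.08 CPM in Chd8+/-, also a log2 fold change of -0.60, with an SE of 0.113. None of these 3 genes had a Chd8+/- library within the wildtype range, and the wildtype libraries of Kl differed little from each other.

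Among Clic6, Kcne2, Aqp1, Folr1 and Kl, only Kcne2 had overlapping genotypes at P5. It gave 2.87, 3.28 and 2.30 CPM in Chd8+/+ and 2.90, 2.18 and 2.5 CPM in Chd8+/-, and the genotypes overlapped almost fully (log2 fold change -0.14 ± 0.160). This log2 fold change was close to the median of -0.091 over the 26 other transport and channel genes listed below. Of those, 9 were apart in the lower direction and 2 in the higher one. Clic6, the neighbour of Kcne2, and Folr1 were both apart between the genotypes in the same RNA. Per length, Folr1 was 1.15 to 1.33 times as high as Kcne2 in the Chd8+/+ libraries and 0.431 to 0.587 times as high in the Chd8+/- libraries, which restates the P5 difference of Folr1 on the scale of Kcne2. At E12.5 the same ratio was 0.458 to 0.921 in Chd8+/+ and 0.415 to 0.522 in Chd8+/-.

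Among the secreted factors at P5, Ttr gave 413.6, 539.4 and 438.9 CPM in Chd8+/+ and 329.5, 361.5 and 306.3 CPM in Chd8+/-, a log2 fold change of -0.46 ± 0.0898. Enpp2 gave 83.5, 86.8 and 75.8 CPM in Chd8+/+ and 66.1, 67.4 and 71.8 CPM in Chd8+/-, a log2 fold change of -0.25 ± 0.0512. The genotypes of both genes were apart, those of Enpp2 only narrowly.

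F5 gave 1.58, 2.11 and 1.39 CPM in Chd8+/+ and 0.982, 1.10 and 0.991 CPM in Chd8+/- at P5, on 41 to 92 reads per library (log2 fold change -0.70 ± 0.188). Sostdc1 gave 4.97, 6.62 and 4.72 CPM in Chd8+/+ and 5.15, 5.33 and 4.82 CPM in Chd8+/-. The genotypes of F5 were apart, whereas all 3 Chd8+/- values of Sostdc1 lay inside the wildtype range, and its log2 fold change of -0.073 ± 0.130 turned to 0.088 without Chd8+/+ replicate 2.

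Otx2 was low at P5 in comparison with E12.5. It gave 2.40, 2.48 and 2.32 CPM in Chd8+/+ and 1.03, 1.55 and 1.34 CPM in Chd8+/-, on 43 to 129 reads per library. The genotypes were apart, with a log2 fold change of -0.86 ± 0.160.

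The library Chd8+/+ replicate 2 was the highest of the 6 P5 libraries for all 10 genes. Without it, 9 of the 10 genes were lower in Chd8+/-, the median log2 fold change was -0.49, and 8 of the 10 were apart, beside 18.9% of all genes. Leaving out any other P5 library left all 10 lower and 8 apart, beside 18.3% to 24.0% of all genes, with medians between -0.66 and -0.50. The last of these was without Chd8+/- replicate 3, the library that stood apart over all genes and that was lowest for 5 of the 10.

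**Figure D2:**
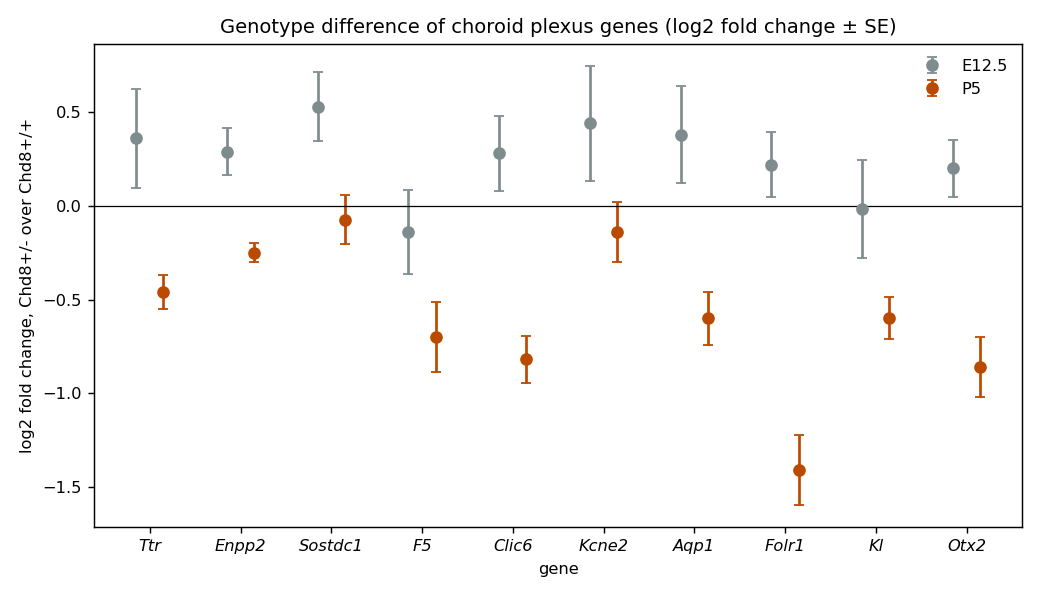
Log2 fold change of each choroid plexus gene between the genotypes (Chd8+/- over Chd8+/+, edgeR, points with SE, 3 libraries per genotype) at E12.5 (grey) and P5 (orange). The E12.5 values lie between -0.14 and 0.53, and the P5 values lie between -0.073 for Sostdc1 and -1.41 for Folr1.

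Between E12.5 and P5, Ttr, Enpp2, Kl, Sostdc1 and Aqp1 rose and Clic6 and Otx2 fell in both genotypes. Of the 10 genes, 6 rose and 2 fell in Chd8+/+ and 5 rose and 3 fell in Chd8+/-, all by edgeR with adjustment over 19676 genes. Changes between these stages were general, so that 8 of 10 is no more than the background. Over all genes, 83.1% changed in Chd8+/+, where 41.4% rose and 41.7% fell, and 82.9% in Chd8+/-, where 41.3% rose and 41.6% fell. The stages also differ in the tissue taken and in the table that holds the counts, and these cannot be told apart from age.

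Kl rose the most in Chd8+/+, from a mean of 0.344 to 5.37 CPM, or 15.6-fold (log2 fold change 3.96 ± 0.158, adjusted p = 5.52e-12). Ttr rose 8.61-fold (3.11 ± 0.242, adjusted p = 1.51e-08) and Enpp2 6.91-fold (2.79 ± 0.105, adjusted p = 2.95e-12). In Chd8+/- the rises were 10.3-fold for Kl (adjusted p = 5.73e-11), 4.82-fold for Ttr (adjusted p = 3.87e-07) and 4.70-fold for Enpp2 (adjusted p = 3.07e-11). No library of one stage overlapped with the other in these 3 genes.

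Aqp1 rose 3.12-fold in Chd8+/+ (adjusted p = 9.77e-06) and 1.56-fold in Chd8+/- (adjusted p = 0.0178), where the stages overlapped through the 5.32 CPM of E12.5 replicate 2. The second call was lost without E12.5 Chd8+/- replicate 1 (adjusted p = 0.0526) and without P5 Chd8+/- replicate 1 (adjusted p = 0.0759). Sostdc1 rose 2.80-fold in Chd8+/+ (adjusted p = 1.12e-06) and 1.82-fold in Chd8+/- (adjusted p = 0.000217).

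Folr1 rose 2.36-fold in Chd8+/+ (log2 fold change 1.24 ± 0.187, adjusted p = 2.22e-05). In Chd8+/- its mean was 2.26 CPM at E12.5 and 1.69 CPM at P5, and this did not pass the test (-0.42 ± 0.199, adjusted p = 0.0668), though the stages did not overlap. The fall passed in edgeR with a replicate block (adjusted p = 0.0352). It also passed without P5 Chd8+/+ replicate 2 (0.0434) and without P5 Chd8+/- replicate 1 (0.0328). F5 did not pass in Chd8+/+ (-0.10 ± 0.211, adjusted p = 0.683) and fell in Chd8+/- (-0.68 ± 0.227, adjusted p = 0.0126), a call that was lost without E12.5 Chd8+/- replicate 2 (adjusted p = 0.0546).

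Otx2 fell 20.2-fold in Chd8+/+ (-4.34 ± 0.174, adjusted p = 6.07e-12) and 42.7-fold in Chd8+/- (-5.41 ± 0.192, adjusted p = 1.42e-12). Clic6 fell 1.73-fold in Chd8+/+ (adjusted p = 0.0013) and 3.75-fold in Chd8+/- (adjusted p = 4.27e-07). Kcne2 passed in neither genotype, with log2 fold changes of 0.085 ± 0.274 (adjusted p = 0.781) and -0.52 ± 0.274 (adjusted p = 0.0932). A call in one genotype and none in the other, as for Folr1 and F5, is no test of a difference between them. The difference between the genotypes in these stage changes contains the P5 genotype contrast by which the genes were chosen, and is given without a p for them. On the log2 scale it lay between -0.56 for Enpp2 and -1.65 for Folr1. Fitted over all 19676 genes, it was called for 0 genes by edgeR, with 1972 at an unadjusted p under 0.05, and for 8 of 8616 by DESeq2.

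**Figure D3:**
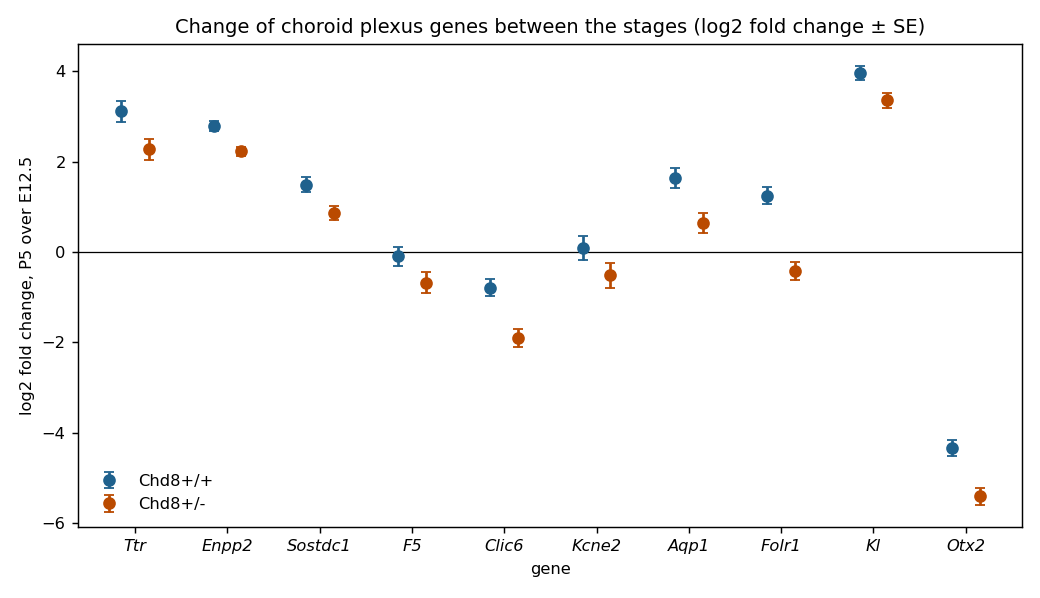
Log2 fold change of each choroid plexus gene from E12.5 to P5 (edgeR, points with SE, 3 libraries per stage and genotype) in Chd8+/+ (blue) and Chd8+/- (orange). Kl, Ttr and Enpp2 lie above 2 in both genotypes, Otx2 lies at -4.34 and -5.41, and Kcne2 and F5 lie closest to 0 in Chd8+/+.

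Covariation of the genes between libraries was described from each library's log2 CPM minus the mean of its own group, which removes stage and genotype. Over the 12 libraries the 45 pairs of genes had a median Pearson r of 0.29, and 37 of them were above 0, beside a median r of 0.021 between these genes and all genes. The points share library, depth and dissection, and with 3 libraries a group only 8 of the 12 deviations are free. The genes did not move as a single block.

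At E12.5, 2 libraries held most of the extremes. Ttr, Kcne2, Clic6, Folr1 and, narrowly, Otx2 were lowest in Chd8+/+ replicate 3, where Kcne2 deviated from its group mean by -0.91, Ttr by -0.82, Clic6 by -0.50, Folr1 by -0.31, F5 by -0.28 and Otx2 by -0.05 on the log2 scale. Ttr and Kcne2 moved almost in proportion, with an r of 0.99 over these 6 libraries. Per length, Kcne2 was 0.031 to 0.0374 times as high as Ttr in every E12.5 library, although Ttr itself varied 2.69-fold. At P5 the same ratio was 0.00361 to 0.00607, since Ttr was higher there and Kcne2 was not.

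Aqp1, Otx2, F5, Sostdc1 and Enpp2 were highest in Chd8+/- replicate 2 at E12.5, and so was Clic6. In that library Aqp1 deviated by 0.61, Otx2 by 0.42, F5 by 0.33, Sostdc1 by 0.31 and Enpp2 by 0.27. The same 5 genes were lowest among the Chd8+/- libraries in replicate 1, where Aqp1 deviated by -0.60 and F5 by -0.46. The r over the 6 libraries was 0.86 between Aqp1 and Otx2 and 0.89 between Aqp1 and Enpp2, against 0.02 between Ttr and Otx2 and -0.40 between Ttr and Sostdc1. The genes did not fall into separate sets, since F5 had an r of 0.88 with Aqp1, 0.81 with Clic6 and 0.53 with Ttr.

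Genes of other regions moved along in these libraries. The thalamus and diencephalon list was on average 0.95 above its group mean on the log2 scale in E12.5 Chd8+/- replicate 2, with deviations of -0.55 and -0.40 in replicates 1 and 3, and its summed level was 756.4 to 881.0 CPM in Chd8+/- and 710.0 to 784.5 CPM in Chd8+/+. The stroma list, of fibroblast genes of the choroid plexus and the leptomeninges, summed to 1106.8 CPM in replicate 2 and to 537.7 and 719.7 CPM in the other Chd8+/- libraries, beside 639.0 to 816.5 CPM in Chd8+/+. In Chd8+/- replicate 2 the lists of cortical hem and roof plate, erythrocytes and hippocampus deviated by 0.27, 0.28 and 0.23 and had their highest sums of the 6 libraries, whereas the cortex list deviated by -0.17 and had its lowest, 1469.5 CPM beside 1680.7 to 1817.2 CPM in the other 5. The ependymal and motile cilia list deviated by -0.30 from its group mean in E12.5 Chd8+/+ replicate 3, the library in which Ttr and Kcne2 were low, and summed to 68.4 to 86.5 CPM in Chd8+/+ and 80.3 to 83.6 CPM in Chd8+/-. Of the other choroid plexus genes listed, secreted and growth factors deviated by 0.36 and transcription factors by 0.19 in Chd8+/- replicate 2. Transport and channels deviated by -0.02 there, and epithelium, cytoskeleton and metabolism by -0.03. In Chd8+/+ replicate 3 these lists deviated by -0.02, -0.17, -0.15 and -0.09, in the same order. The part of all these lists in the levels of the 10 genes was not tested.

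At P5 the median r over the 45 pairs was 0.51, with 38 above 0, and at E12.5 it was 0.20, with 30 above 0. The median r with all genes was 0.055 at P5 and 0.0062 at E12.5. Within a stage fewer than 6 deviations are free, and Chd8+/+ replicate 2 was the highest P5 library for all 10 genes. The highest r at P5 were 1.00 for Aqp1 and Folr1, 0.97 for Sostdc1 and F5, and 0.91 for Ttr and Sostdc1, over the 6 libraries. Otx2 did not follow Aqp1 here as it had at E12.5 (r = -0.31). Counting error weighed unequally on these deviations. For Otx2 the SD between libraries was 0.048 on the log2 scale in Chd8+/+, with a counting SD of 0.135, and 0.288 in Chd8+/-, with a counting SD of 0.191. For F5 it was 0.302 in Chd8+/+, with a counting SD of 0.161, and 0.09 in Chd8+/-, with a counting SD of 0.216. For Ttr in Chd8+/+ it was 0.201, with a counting SD of 0.01.

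**Figure D4:**
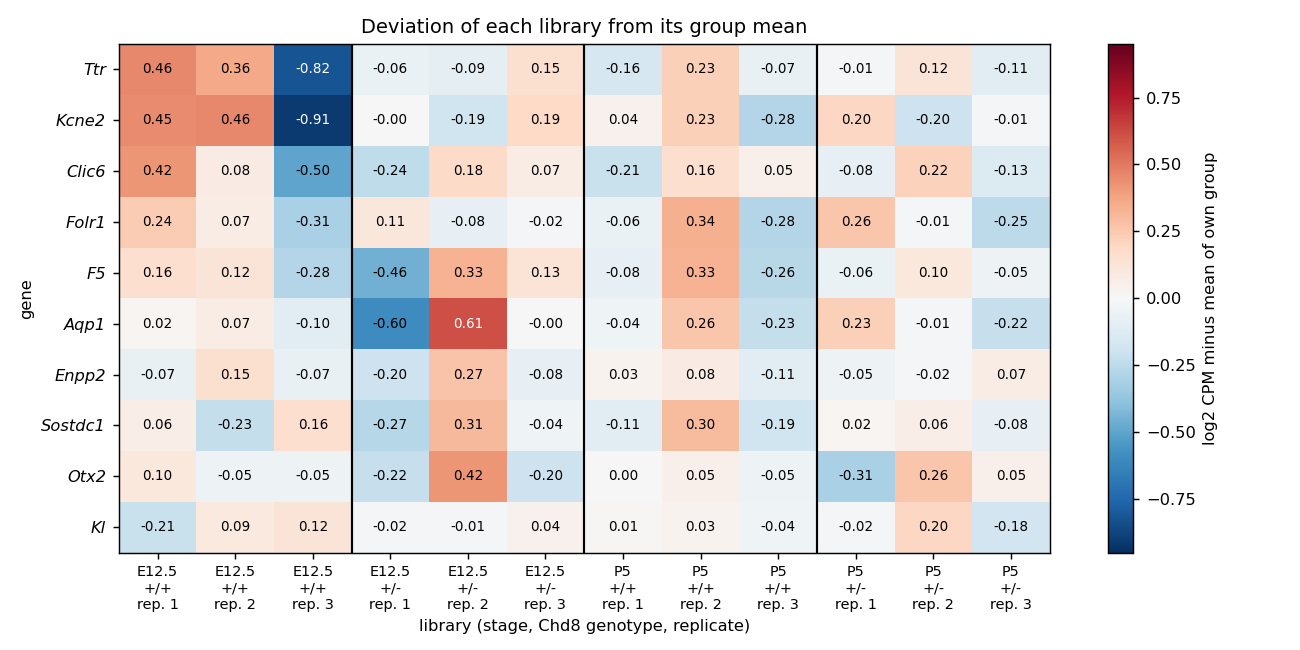
Deviation of log2 CPM in each library (columns) from the mean of its own group of 3, for the 10 choroid plexus genes (rows), with red above and blue below the mean. Ttr, Kcne2, Clic6 and Folr1 are blue in E12.5 Chd8+/+ replicate 3, and Aqp1, Otx2, F5, Sostdc1 and Enpp2 are red in E12.5 Chd8+/- replicate 2.

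The genes whose deviations were most like the mean of the 10, over the 12 libraries and among 19666 genes compared, were Fli1, 4930432K21Rik, Nlrp3, 9130019O22Rik, Dram1, Spag6l, Grm8, Plcg2, Mchr1 and Rsph1. Their r lay between 0.89 and 0.94, beside a median of 0.03 over all genes compared. Spag6l and Rsph1 are in the list of ependymal and motile cilia genes, and none of the 10 is in a choroid plexus list. Their genotype differences were not used in choosing them. None passed in edgeR, with adjusted p-values of 0.942 to 0.996 at E12.5 and 0.131 to 0.854 at P5, where their log2 fold changes lay between -0.23 for Nlrp3 and 0.40 for 4930432K21Rik.

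Other genes of the choroid plexus were counted in 4 lists. Of the 71 symbols listed, 69 were found in the tables and 68 were tested at P5, of which 52 had a lower and 16 a higher mean in Chd8+/-. Their median log2 fold change was -0.10. edgeR called 0 of them, 22 were lower and 1 higher at an unadjusted p under 0.05 (9.77% of all genes were lower and 8.0% higher), and DESeq2 called 4 of 42, all lower (3.55% of all genes). At E12.5, 24 of 64 were lower and 40 higher, with a median of 0.069, 0 called by edgeR or by DESeq2, and 1 higher and 2 lower at an unadjusted p under 0.05 (2.31% and 2.84% of all genes). Their summed level was 2276.9 to 2359.2 CPM in Chd8+/+ and 2154.0 to 2319.1 CPM in Chd8+/- at P5, so that the genotypes overlapped. By list, the sum was 1304.5 to 1396.5 CPM in Chd8+/+ and 1219.0 to 1278.2 CPM in Chd8+/- for transport and channels, and 379.7 to 396.2 CPM and 331.7 to 363.5 CPM for epithelium, cytoskeleton and metabolism, and these were apart. It was 432.0 to 479.5 CPM and 420.3 to 545.0 CPM for secreted and growth factors, and 127.9 to 136.6 CPM and 117.4 to 132.4 CPM for transcription factors, and these overlapped. Atp1b1 alone, which neurons also express, had a mean of 688.9 CPM in Chd8+/+. In the list of secreted and growth factors, Igf2 alone had means of 278.1 CPM in Chd8+/+ and 307.2 CPM in Chd8+/- at P5.

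Of the transport and channel genes, 20 of 26 had a lower mean in Chd8+/- at P5, and their median was -0.091 on the log2 fold change scale. The 4 with the highest TPM were Atp1b1, a subunit of the sodium pump, at -0.09 ± 0.0415, the monoamine transporter gene Slc29a4 at 0.06 ± 0.0534, the copper transporter gene Slc31a1 at -0.09 ± 0.0468, and the thyroxine transporter gene Slco1c1 at -0.31 ± 0.0761. None passed in edgeR, and Slco1c1 passed in DESeq2 (adjusted p = 0.00275). Slco1c1 is also expressed by brain endothelium.

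Of the genes of epithelium, cytoskeleton and metabolism, 18 of 20 had a lower mean in Chd8+/- at P5, with a median of -0.25. The 4 most abundant were closer to 0, with Vat1l at -0.08 ± 0.047, Cdkn1c at -0.01 ± 0.0723, Spint2 at -0.09 ± 0.0664 and Cab39l at 0.08 ± 0.062. Of the secreted and growth factors, 6 of 11 had a lower mean, with a median of -0.045, and Igf2, at 0.16 ± 0.101, and Igfbp2, at 0.06 ± 0.0606, had a higher one. Of the transcription factors, 8 of 11 had a lower mean, with a median of -0.15, and Rfx3 stood at -0.02 ± 0.0574 and Foxj1 at -0.30 ± 0.158. edgeR called 0 genes in each of these lists. At an unadjusted p under 0.05, 9 transport and channel genes, 9 genes of epithelium and metabolism, 2 secreted factors and 2 transcription factors were lower, and DESeq2 called 3, 1, 0 and 0.

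Among the less abundant listed genes, named here after their values were seen, Steap1 stood at -1.13 ± 0.279, the tight junction gene Cldn2 at -0.94 ± 0.173, Lmx1a, a transcription factor of the roof plate, at -0.85 ± 0.303, and Slc4a5, a bicarbonate transporter gene, at -0.63 ± 0.191. The genotypes of all 4 were apart at P5. In all, 24 of the 68 tested genes were apart in the lower direction and 3, namely Slco1a5, Rfx2 and Slc5a5, in the higher one (14.8% and 8.55% of all genes). Cldn2 had a mean of 3.04 CPM in Chd8+/+ and 1.57 CPM in Chd8+/-, and Slc4a5 had 2.86 and 1.84 CPM. Levels were lower still for Steap1, at 0.818 and 0.368 CPM, and for Lmx1a, at 0.514 and 0.285 CPM. In the other direction, Slco1a5 stood at 0.53 ± 0.301 on means of 0.287 and 0.409 CPM. Msx2 stood at 0.33 ± 0.207 on means of 0.746 and 0.932 CPM.

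**Figure D5:**
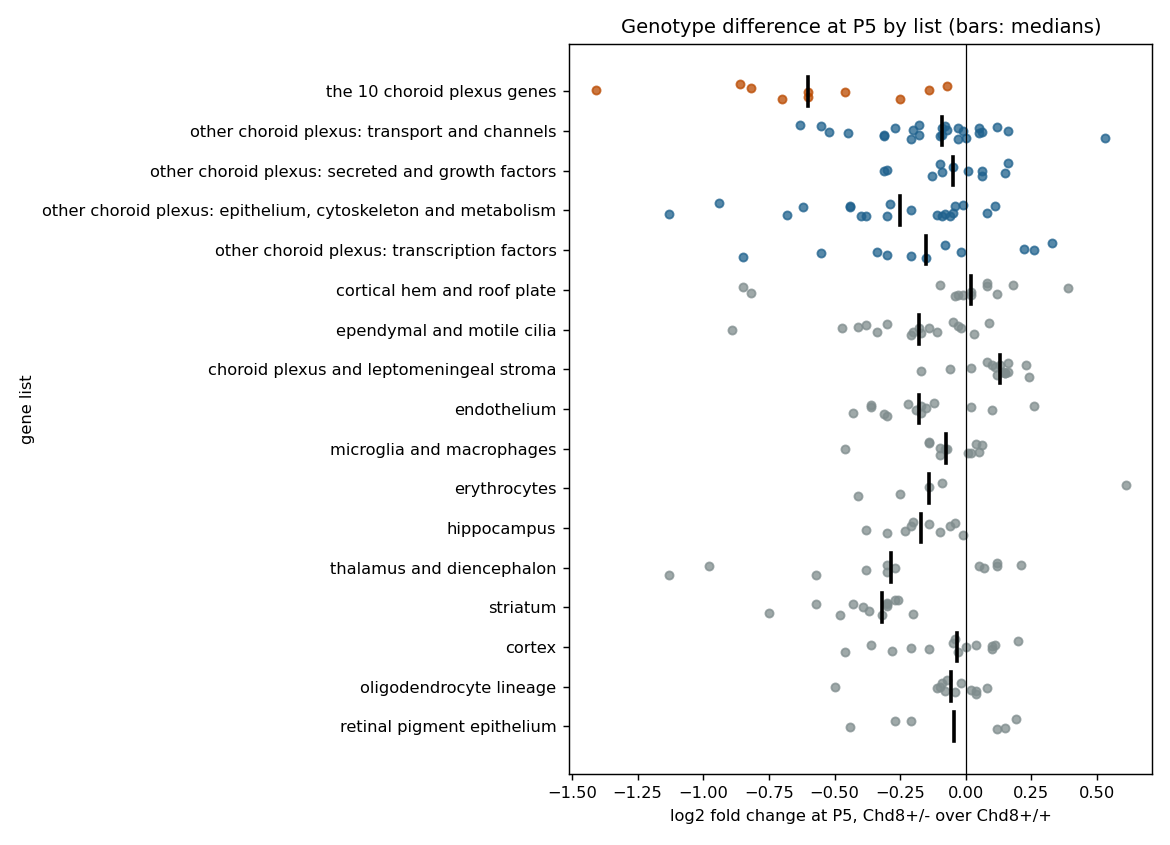
Log2 fold change at P5 (Chd8+/- over Chd8+/+, edgeR) of each tested gene of the lists, with the 10 choroid plexus genes in orange, other choroid plexus genes in blue and lists of other cell types and regions in grey. Points are genes and bars are medians, which lie at -0.60 for the 10 genes and between -0.25 and -0.045 for the other choroid plexus lists.

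Between the stages, all 11 listed transcription factors of the choroid plexus fell in both genotypes, as Otx2 did, with median log2 fold changes of -2.54 in Chd8+/+ and -2.39 in Chd8+/-. Of the 26 transport and channel genes, 18 rose and 6 fell in Chd8+/+ and 16 rose and 7 fell in Chd8+/-. Of the 20 tested genes of epithelium and metabolism, 11 rose and 5 fell in Chd8+/+ and 10 rose and 9 fell in Chd8+/-. Of the 11 secreted and growth factors, 6 rose and 3 fell in each genotype. Of all genes, 41.4% rose and 41.7% fell in Chd8+/+, and 41.3% and 41.6% in Chd8+/-.

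Lists of neighbouring cell types and regions were set beside the P5 values. The striatum list had 13 of 13 genes below 0, a median of -0.32, 0 called by edgeR and 8 by DESeq2, and its summed level was 412.1 to 441.8 CPM in Chd8+/+ and 284.4 to 365.2 CPM in Chd8+/-. In the endothelium list 11 of 14 were lower, with a median of -0.18, and the sum was 375.6 to 398.1 CPM against 320.9 to 355.8 CPM. In the hippocampus list 10 of 10 were lower, with a median of -0.17, and the sum was 326.5 to 339.2 CPM against 272.4 to 315.3 CPM. In the thalamus and diencephalon list 7 of 12 were lower, with a median of -0.29, and the sum was 163.2 to 179.8 CPM against 143.5 to 161.1 CPM.

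The ependymal and motile cilia list had 15 of 17 genes lower, a median of -0.18 and overlapping sums of 76.6 to 94.4 CPM in Chd8+/+ and 59.9 to 84.3 CPM in Chd8+/-. The list of choroid plexus and leptomeningeal stroma went the other way, with 13 of 15 genes higher in Chd8+/-, a median of 0.13 and sums of 731.3 to 787.1 CPM against 685.3 to 946.0 CPM. In the remaining lists the medians were 0.016 for cortical hem and roof plate, -0.074 for microglia and macrophages, -0.14 for erythrocytes, -0.035 for cortex, -0.054 for the oligodendrocyte lineage and -0.048 for retinal pigment epithelium. edgeR called 0 genes in all of these lists. At an unadjusted p under 0.05, 12 genes of the striatum list, 10 of endothelium, 5 of hippocampus and 5 of thalamus and diencephalon were lower, beside 9.77% of all genes, and 1 of endothelium, Plvap, was higher (0.26 ± 0.0747). DESeq2 called 8, 5, 1 and 1 genes of these lists, all lower, beside 3.55% of all genes, and the single calls in the hippocampus and thalamus lists were the same gene, Prox1. In the cortex list 4 genes were lower and 1 higher at an unadjusted p under 0.05, and DESeq2 called 2, Bcl11b and Neurod6, both lower. These 3 genes and Plvap are named after their values were seen. The part of these lists in the values of the 10 genes was not tested.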

How the data were processed

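RNA-seq was made from the 12 neocortical libraries described above. The authors trimmed paired-end reads with Trim Galore 0.4.1, aligned them to GRCm38 with TopHat2 2.1.0 and counted them on genes with featureCounts 1.5.0, and the deposited unit is the raw count per gene and sequencing run. The P5 counting command set no strand and that for E12.5 is not given in the sources used here. Ttr and F5 share exon bases with an antisense gene (0.9% and 3.53% of their bases).

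The 2 runs of a library were summed, since their chi-squared per degree of freedom was 1.175 to 1.507, against 6.584 to 45.383 for libraries of a group. Genotypes were compared within each stage, and stages in 1 model of 4 groups, by the quasi-likelihood test of edgeR 4.0.16 (R 4.3.3) after filterByExpr at its defaults and TMM scaling, and p-values were adjusted over all genes tested (Benjamini-Hochberg, threshold 0.05). All 10 genes passed the filter in each comparison. Adjusted p-values in the text come from edgeR unless DESeq2 (1.42.0) is named. Log2 CPM used a prior count of 2, and TPM used the merged exon lengths of the count files. Fits were tested on simulated data.

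All 10 genes are named, in the order of their roles. Similar genes are the 10 other genes with the highest r with the mean deviation of the 10 and a slope of at least 0.5, and examples of a list are up to 4 with the highest P5 TPM. The genes, lists, tests and alternatives were chosen with earlier results of these data known. Alternatives were DESeq2 with and without its prior, limma-voom (limma 3.58.1), other scalings and filters, a replicate block, 12 libraries in 1 model, other prior counts and each library left out. Plots were drawn with matplotlib 3.10.9, and pandas 2.3.3 under Python 3.11.15 joined the tables.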

Additional observations from a re-analysis of the deposited data

How the results depend on the processing

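The direction of the median log2 fold change of the 10 genes held in every alternative at E12.5, at P5 and, in Chd8+/+, between the stages. At E12.5 it was 0.053 with DESeq2's prior on fold changes and ranged from 0.095 to 0.39 with each library left out, lowest without Chd8+/+ replicate 3. At P5 it was -0.26 with that prior, in which 6 of the 10 genes had an adjusted p. Between the stages, with each library left out, it ranged from 1.18 to 1.47 in Chd8+/+ and from -0.02 to 0.27 in Chd8+/-, lowest without P5 Chd8+/+ replicate 2 and without P5 Chd8+/- replicate 1. The number of the 10 genes called at P5, which was 0, was 5 with DESeq2 with and without its prior, 8 with no filter on low counts, 2 with the replicate block and 1 with all 12 libraries in 1 model, and the cause was not tested. Calls over all genes moved too, from 1 of 18666 to 651 of 12467, 995 of 31265, 4 of 18666 and 4 of 19676 in the same order. With each P5 library left out it ranged from 0 to 5 in edgeR, 5 being without Chd8+/- replicate 2 (327 of 19044 over all genes), and, in an alternative chosen after seeing the data, from 1 to 5 in DESeq2 (48 to 906 over all genes). In the same leave-one-out fits, log2 fold changes that turned sign ranged at E12.5 from -0.14 to 0.054 for Kl, from -0.30 to 0.054 for F5 and from -0.04 to 0.31 for Otx2, at P5 from -0.16 to 0.088 for Sostdc1 (to 0.086 in DESeq2), and between the stages in Chd8+/+ from -0.25 to 0.28 for Kcne2 and from -0.28 to 0.024 for F5. None of these passed in edgeR. Between the stages in Chd8+/-, Folr1 passed, as lower at P5, with the replicate block (adjusted p = 0.0352), without P5 Chd8+/+ replicate 2 (0.0434) and without P5 Chd8+/- replicate 1 (0.0328), and Kcne2 with no filter on low counts (adjusted p = 0.0291) and without E12.5 Chd8+/+ replicate 3 (0.00994). The median r of deviations was 0.51 with the P5 libraries alone and 0.18 to 0.36 with each library left out. Same-numbered libraries of the genotypes had deviations correlated at -0.156 to -0.049 at E12.5 and 0.038 to 0.187 at P5. For libraries with different numbers it was -0.074 to 0.143 at E12.5 and -0.138 to 0.072 at P5. The sources used here do not say that the numbers pair libraries, and the main fits did not pair them. The replicate block called 0 of the 10 genes at E12.5 and 2 at P5. Depth limits Kl at E12.5, with at most 18 reads per library, and F5 and Otx2 at P5, with at most 129.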
